A study of Homo sapiens with 6 samples.

Results

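Small nucleolar RNAs (snoRNAs) and small Cajal body RNAs were examined in polyadenylated RNA of SW480, a human cell line from a colon adenocarcinoma. Genes whose symbols begin with SNORD, SNORA or SCARNA were kept when their mean level over the 6 libraries was at least 1 TPM (transcript abundance scaled by gene length and by library). The set was thus chosen by mean TPM. It held 203 of 568 such symbols, out of 28307 gene symbols in all. They comprised 118 SNORD genes (C/D box), 73 SNORA genes (H/ACA box) and 12 SCARNA genes (Cajal body). Their levels are described and not tested.

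The control group, Clover (3 libraries), stably carried pLENTI CMV Clover, a lentivirus encoding a fluorescent protein. The other group, Z18trunc (3 libraries), stably carried pLENTI CMV Z18trunc, which encodes truncated ZC3H18. ZC3H18 is a nuclear protein that links capped RNA to RNA surveillance, and the truncated form lacks the C-terminal domain that recruits the surveillance machinery. Both groups share the CMV promoter, lentiviral transduction and puromycin selection, the lines were made in biological triplicate, and the cells keep their own ZC3H18 genes. The ZC3H18 level was 57.2 ± 5.39 TPM for Clover against 763 ± 31.2 TPM for Z18trunc (SD, n = 3 each). The log2 change of 3.72 passed the test (SE 0.09, limma adjusted p = 3.2e-05). Transcripts of the construct and of the resident gene are counted under this symbol. The libraries held 18226033 to 22463310 aligned fragments. The colon epithelial keratins KRT8 and KRT18 were at means of 9759 and 11477 TPM, and LGR5 was listed at 0 in every library. PTPRC, PECAM1, MLANA and TYR, markers of other cell types, were listed at 0 throughout, with PMEL at 2.01 TPM and COL1A1 at 1.37 TPM.

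snoRNAs are short nuclear RNAs that guide chemical modification of ribosomal and spliceosomal RNA. C/D box snoRNAs guide 2′-O-methylation together with fibrillarin, H/ACA box snoRNAs guide pseudouridylation together with dyskerin, and Cajal body RNAs carry such boxes and direct modification of spliceosomal RNAs. Most human snoRNAs lie in introns of host genes, are released when the intron is debranched and trimmed by exonucleases, and carry no poly(A) tail once mature. Libraries selected for poly(A) therefore can hold precursors, extended or tailed forms and host RNA that spans a snoRNA gene, and a count over a snoRNA gene cannot tell these apart. In bulk RNA, a smaller share of cells with a transcript and less transcript per cell cannot be told apart either.

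The sequences below, read on the gene's own strand from hg38, belong to the most abundant gene, to the most abundant gene in a NOP56 exon and to the 6 genes with the largest changes described further on. Capitals mark the C box letters TGATGA in the first 25 bases and the D box letters CTGA in the last 20 bases of SNORD genes, or the letters ACA in the last 8 bases of SNORA genes, searched on that strand only.
SNORD141B: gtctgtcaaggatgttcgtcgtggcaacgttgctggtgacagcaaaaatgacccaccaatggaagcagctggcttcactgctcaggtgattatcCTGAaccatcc
SNORD86: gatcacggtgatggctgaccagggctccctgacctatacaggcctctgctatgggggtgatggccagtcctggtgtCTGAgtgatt
SNORA4: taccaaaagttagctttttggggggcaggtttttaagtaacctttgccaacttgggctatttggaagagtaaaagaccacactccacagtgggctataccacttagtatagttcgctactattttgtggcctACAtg
SNORD14B: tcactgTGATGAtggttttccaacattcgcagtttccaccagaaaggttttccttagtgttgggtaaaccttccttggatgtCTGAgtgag
SNORD63B: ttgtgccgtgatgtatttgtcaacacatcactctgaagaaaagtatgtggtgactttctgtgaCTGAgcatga
SNORD143: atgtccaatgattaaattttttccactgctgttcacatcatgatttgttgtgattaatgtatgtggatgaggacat
SNORA11F: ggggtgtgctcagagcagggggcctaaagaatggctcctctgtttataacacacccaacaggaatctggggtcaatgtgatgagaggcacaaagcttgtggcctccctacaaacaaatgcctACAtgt
SNORA73B: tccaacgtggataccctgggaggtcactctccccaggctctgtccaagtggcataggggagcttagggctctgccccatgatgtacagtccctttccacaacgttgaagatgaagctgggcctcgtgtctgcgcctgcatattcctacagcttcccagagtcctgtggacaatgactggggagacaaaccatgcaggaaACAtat
SNORD141B lies on chr9:133020430-133020534 (+), SNORD86 on chr20:2656097-2656182 (+) and SNORA4 on chr3:186787613-186787749 (+). SNORD14B lies on chr11:17075778-17075868 (-), SNORD63B on chr5:138558969-138559041 (-) and SNORD143 on chr4:82895853-82895928 (-). SNORA11F lies on chr10:73126080-73126207 (-) and SNORA73B on chr1:28508558-28508762 (+). Among these, SNORD14B held both SNORD boxes as spelled, whereas SNORD141B, SNORD86 and SNORD63B held the D box letters alone and SNORD143 neither. All 3 SNORA sequences held ACA near the end. Across the SNORD genes with a model of at most 450 bases, 69 of 115 (60.0%) held both boxes and 97.4% the D box. ACA closed 66 of 73 SNORA genes (90.4%) and 11.3% of the SNORD genes. In 35116 RefSeq promoter windows of 99 bases, 0.0456% held both SNORD boxes and 6.78% held ACA in the same places.

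Detection was given first for each library. Of the 568 symbols, 281, 275 and 268 were above 0 in Clover replicates 1, 2 and 3, and 274, 272 and 279 in Z18trunc replicates 1, 2 and 3. A further count showed 224 symbols at 0 in all libraries, of which 178 were SNORD, 44 SNORA and 2 SCARNA symbols. Of the 203 genes, 201, 197 and 201 were above 0 with Clover and 203, 200 and 201 with Z18trunc. At least 1 TPM was reached by 179, 168 and 180 of them in Clover and by 183, 184 and 187 in Z18trunc. The 1 TPM rule used the same values, and over all 568 symbols 198, 178 and 194 reached 1 TPM in Clover and 197, 200 and 208 in Z18trunc, with overlapping groups. In all 6 libraries, 189 genes were above 0 and 138 were at 1 TPM or more. A level of 1 TPM corresponded to a mean coverage of 2.03 to 2.57 reads per base over these genes. Just inside the rule stood SCARNA10 at 1.05, SNORD75 at 1.07 and SNORA11 at 1.08 TPM, and just outside SNORD19C at 0.989, SNORD99 at 0.972 and SNORD144 at 0.959 TPM.

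Most of the genes were low. Their median level was 4.15 TPM, with 115 genes under 5 TPM and 45 at 10 TPM or more. By class the median was 4.83 TPM for SNORD, 3.82 TPM for SNORA and 2.91 TPM for SCARNA genes. The median within-group SD on the log2(TPM + 1) scale was 0.45 over the 203 genes and 0.13 over all 13300 genes with a mean of 1 TPM or more. For the 45 genes at 10 TPM or more it was 0.29, and for the 115 genes under 5 TPM it was 0.52. Between the highest and the lowest library the median gene differed 2.82-fold, 45 genes differed more than 5-fold, and 14 were at 0 in at least 1 library.

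Some genes differed widely inside a group, and 3 of them were chosen for naming after their values were seen. SNORD3A (U3 snoRNA, which acts in ribosomal RNA cleavage) had 0.796, 23.3 and 1.71 TPM in Clover replicates 1 to 3 and 10.8, 2.11 and 1.31 TPM in Z18trunc replicates 1 to 3. SNORA18, in TAF1D, had 0.221, 11.8 and 18.6 TPM in Clover and 0.235, 9.46 and 0.230 TPM in Z18trunc. SNORA56, in the dyskerin gene DKC1, had 0.165, 2.51 and 3.42 TPM in Clover and 0.150, 0.247 and 0.00992 TPM in Z18trunc. In each of these genes libraries of both groups lay near the bottom of the range, and the groups overlapped.

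The place of a gene on its strand varied across the 203 genes. An exon of a noncoding transcript covered at least 50% of 117 genes, and an exon of a coding transcript covered 19. Noncoding transcripts here include forms of coding genes that keep an intron, such as the EIF4A2 form that holds SNORA4. Genes in introns of the spliced host mRNA can therefore be among the 117. A further 56 lay in introns with no such exon over at least 50% of them, 4 in exons of pseudogenes and 7 outside annotated genes of their strand. The median level was 5.33 TPM in noncoding exons, 5.07 TPM in coding exons and 2.45 TPM in introns. The 56 genes counted as intronic by this rule held 8.71% of the summed TPM, and the 4 genes in pseudogenes held 31.2%.

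**Figure D1:**
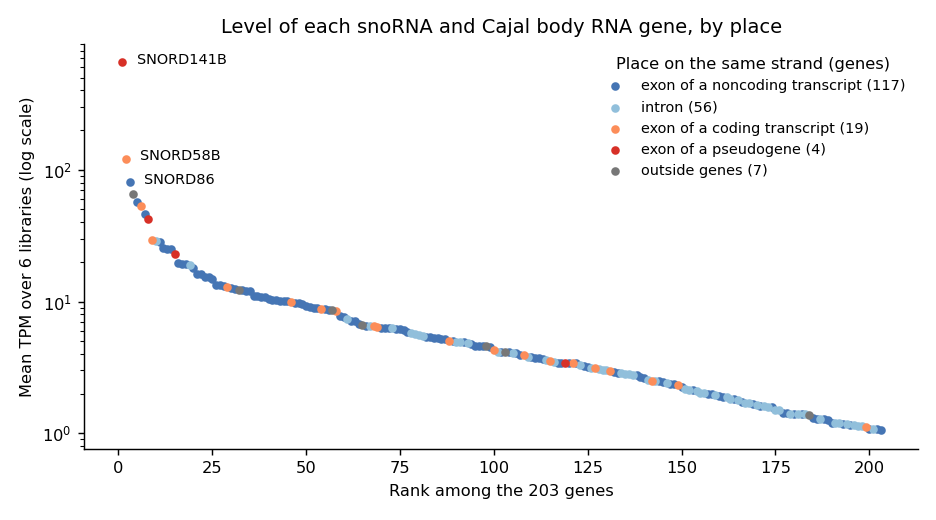
Mean TPM over the 6 libraries (log axis) for each of the 203 genes in order of level, with each point coloured by the gene's place on its own strand. SNORD141B, in a pseudogene, stands at 653 TPM, the next 2 genes are SNORD58B at 122 TPM and SNORD86 at 81.1 TPM, and 115 genes lie under 5 TPM.

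The plot of levels by place shows how far 1 gene stands above the rest. SNORD141B had 668, 651 and 625 TPM in Clover and 694, 611 and 671 TPM in Z18trunc. Its mean was 28.3% of the mean summed level of the 203 genes. The groups overlapped, with a log2 change of 0.02 (SE 0.08, limma adjusted p = 0.88). The gene lies in EEF1A1P5, a processed pseudogene of the translation elongation factor EEF1A1, and its 105 bases are identical to coding sequence of EEF1A1 itself. EEF1A1 had 4818 ± 228 TPM with Clover and 5047 ± 340 TPM with Z18trunc (SD, n = 3 each). Of the SNORD141B level, 510 to 583 TPM were listed at the chromosome 9 place, 77.3 to 115 TPM at a chromosome 5 pseudogene and at most 0.0186 TPM at EEF1A1 on chromosome 6. SNORD141A, at the same places, was listed at a mean of 42.4 TPM. The levels of SNORD141A and SNORD141B are therefore uncertain, because both symbols share these bases with each other and with EEF1A1.

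HSPD1, the mitochondrial chaperonin, was matched in the same way. SNORA105B had 56.7, 68.2 and 55.9 TPM in Clover and 62.5, 67.3 and 84.9 TPM in Z18trunc, with overlapping groups (log2 change 0.24, SE 0.14, limma adjusted p = 0.30). Without Z18trunc replicate 3 the log2 change was 0.11. Its main place, on chromosome 5 opposite CDH12, is identical over 116 bases to HSPD1 transcripts, and SNORA105C on chromosome 12 matches them at 98.3%. SNORA105C was at 11.7 ± 1.504 TPM (SD, n = 3) and 12.9 ± 3.75 TPM (SD, n = 3). HSPD1 itself was at 562 ± 25.2 TPM with Clover and 736 ± 72.3 TPM with Z18trunc (SD, n = 3 each), a log2 change of 0.39 (limma adjusted p = 0.080). The search for copies left out transcripts of snoRNA, Cajal body RNA and other small RNA genes, so copies among those are not counted. In all, 9 of 200 genes searched matched a transcript elsewhere at 95% identity or more over at least 95% of their length, 6 of them a coding gene. Levels of these 9 genes are uncertain for that reason. SNORA7B was among them and matched RPL32 at 98.6%, and SNORD3A and SNORD3B-2 matched 1 long noncoding RNA. For 3 genes not searched the model was long: SNORD62A and SNORD62B share a span of 4907 bases, and SNORD103B spans 13517.

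The other abundant genes named here are given with their host genes. SNORD58B, in an untranslated exon of the ribosomal protein gene RPL17, had 135, 99.2 and 108 TPM in Clover and 129, 129 and 129 TPM in Z18trunc, with overlapping groups. SNORD86 lies in NOP56, which encodes a core protein of the C/D particle itself. It had 77.9, 82.1 and 83.6 TPM in Clover and 95.2, 70.0 and 77.8 TPM in Z18trunc. SNORA70, in RPL10, was at 57.7 ± 5.76 TPM with Clover and 56.6 ± 9.35 TPM with Z18trunc (SD, n = 3 each). SNORA67, in the RNA helicase gene EIF4A1, was at 52.1 ± 15.6 and 53.9 ± 5.82 TPM (SD, n = 3). SNORD36A, in RPL7A, was at 45.3 ± 4.99 and 46.9 ± 7.83 TPM (SD, n = 3). SNORD139 in RPL3 was at 27.1 ± 5.77 and 31.3 ± 6.80 TPM (SD, n = 3). Annotated coding sequence covered 90.9% of SNORD139, counted over all transcripts, including an RPL3 form marked for nonsense-mediated decay. SNORD104 in SNHG25 was at 29.5 ± 4.01 and 27.6 ± 5.92 TPM (SD, n = 3), and SNORD47 and SNORD80 in GAS5 were at means of 28.4 and 25.6 TPM over the 6 libraries. In each of the 12 most abundant genes the groups overlapped, with log2 changes from -0.10 (SNORD104) to 0.24 (SNORA105B).

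Host genes were assigned on the same strand for 192 of the 203 genes, and 104 distinct hosts carried them. Where several genes spanned a snoRNA gene, that with the highest mean TPM was taken as host. It need not be the gene whose transcript holds the snoRNA. Among the hosts, 64 carried 1 gene, and 128 genes shared a host with another. GAS5, a noncoding RNA gene known from growth arrest, carried 11, TAF1D 8, SNHG1 7 and NOP56 and EIF4A2 5 each. Genes in 1 host are not independent measurements of the condition. The level of a snoRNA gene was below that of its host for 187 of 192 genes, at a median of 1.93% of it, both per length. How the upstream tool set the length of such short genes is not given in the sources used here, which makes this ratio uncertain. The 5 exceptions were SNORD104 in SNHG25, SNORD3A in LOC388436, SNORA57 in CSKMT, SCARNA9 in CEP295 and SCARNA17 in SNHG22. SNHG22 was listed at 0 in every library.

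To ask whether truncated ZC3H18 altered the amount of snoRNA-containing transcripts, Z18trunc and Clover were compared gene by gene with limma on log2(TPM + 1), adjusted over all 13300 genes. None of the 203 genes passed at an adjusted p under 0.05, where 0.015% of all genes did, and the lowest limma adjusted p among them was 0.077. Without adjustment, 26 genes had p under 0.05 with higher values in Z18trunc and 7 with lower values. Over all genes 25.6% were higher and 2.9% lower by that rule, against 12.8% higher among the 203. The median log2 change was 0.13 for the 203 genes and 0.11 for all genes tested, a distance of 0.03. For the 181 genes with both group means at 1 TPM or more the median was 0.09, and -0.03 after quantile normalization. Quantile normalization lowered the median of all genes by 0.11, and the median of the 203 genes became -0.01, while p without adjustment was under 0.05 for 12 higher and 13 lower genes. The median of these genes thus moved with that of all genes.

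All 3 Z18trunc libraries lay above all 3 Clover libraries in 20 of the 203 genes and below them in 6. Over all genes the corresponding shares were 30.1% and 6.73%, and the 20 genes are 9.85% of the 203 and the 6 genes 2.96%. After quantile normalization 13 were higher and 10 lower, beside 16.8% and 16.2% of all genes. Under the 1 TPM rule 16 genes passed through their Z18trunc mean alone and 6 through their Clover mean alone. The rule itself favours high values in that group, and their median log2 changes were 0.75 and -0.69. Of the 181 genes with both group means at 1 TPM or more, 14 were higher without overlap and 5 lower. Before adjustment limma p was under 0.05 for 20 higher and 5 lower of the 181, beside 25.6% and 2.9% of all genes.

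**Figure D2:**
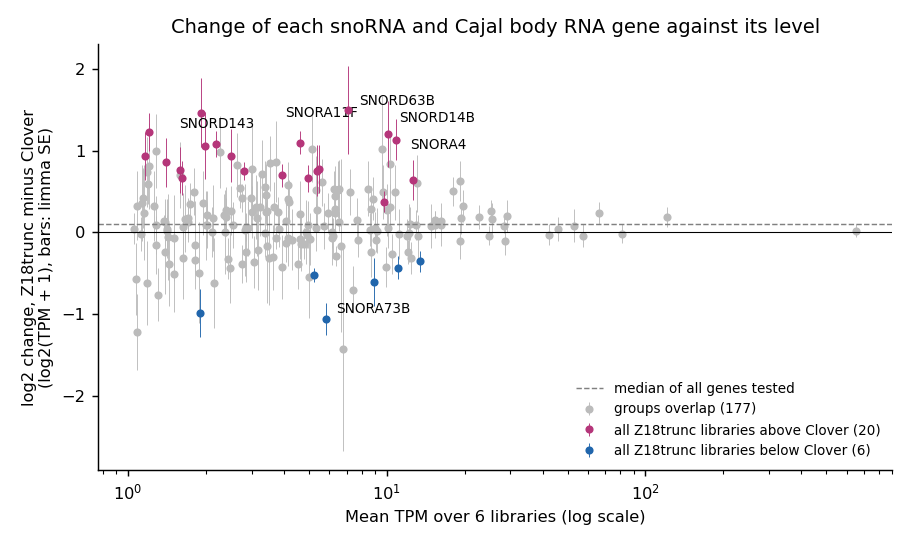
Log2 change of each of the 203 genes (Z18trunc minus Clover, on log2(TPM + 1), bars are limma standard errors) against its mean TPM over 6 libraries on a log axis. The 20 genes with all Z18trunc libraries above Clover and the 6 with all below are coloured, 177 overlap, the dashed line marks the median of all genes tested at 0.11, and the named genes lie between 2.18 and 10.8 TPM.

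The plot of change against level shows genes without overlap on both sides of the dashed line, the most abundant of them being SNORD10 at 13.5 TPM. The classes were close to each other. The median log2 change was 0.17 for SNORD, 0.09 for SNORA and 0.14 for SCARNA genes, and 0.05, -0.06 and -0.0011 after quantile normalization. Groups did not overlap in 12 higher and 2 lower SNORD genes, 7 higher and 4 lower SNORA genes, and 1 higher SCARNA gene, beside 30.1% higher and 6.73% lower over all genes. After quantile normalization these were 9 higher and 5 lower SNORD genes, 3 higher and 5 lower SNORA genes and 1 higher SCARNA gene. Over all genes 16.8% were then higher and 16.2% lower without overlap. By place, the median log2 change was 0.15 for the 56 intronic genes, 0.09 for the 117 in noncoding exons and 0.22 for the 19 in coding exons. Of the intronic genes, 7 were higher without overlap and 1 lower. Among 163 other small RNA genes with a mean of 1 TPM or more (microRNA, spliceosomal, Y and vault RNA genes and their like), 15 were higher without overlap and 7 lower, and their median was 0.01. None of those passed the adjusted limma test, and before adjustment p was under 0.05 for 22 higher and 7 lower ones, beside 25.6% and 2.9% of all genes. After quantile normalization these were 14 higher and 13 lower, beside 12.8% and 10.9% of all genes, with a median of -0.09.

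The 6 genes with the largest changes among those without overlap and with both group means at 1 TPM or more were 5 higher and 1 lower. They were picked for this difference, so their values describe it. SNORD63B, in the mitochondrial chaperone gene HSPA9, had 5.06, 5.03 and 0.656 TPM in Clover and 6.35, 10.8 and 14.6 TPM in Z18trunc. Its log2 change was 1.49 (SE 0.54, limma adjusted p = 0.13), and without Clover replicate 3, its lowest library, it was 0.87. SNORD14B, in RPS13, had 9.21, 2.23 and 7.39 TPM in Clover and 13.6, 14.4 and 13.9 TPM in Z18trunc. Its log2 change was 1.20 (SE 0.40, limma adjusted p = 0.11), and without Clover replicate 2 it was 0.69. The Clover libraries varied more than the Z18trunc libraries in SNORD14B, and in both genes 1 Clover library set much of the size.

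SNORA4, in the translation initiation factor gene EIF4A2, had 7.30, 3.82 and 8.72 TPM in Clover and 16.5, 13.1 and 15.6 TPM in Z18trunc, a log2 change of 1.13 (SE 0.26, limma adjusted p = 0.078). SNORA11F has no host and lies opposite NUDT13. It had 1.89, 3.05 and 2.85 TPM in Clover and 6.18, 6.86 and 6.83 TPM in Z18trunc, a log2 change of 1.10 (SE 0.14, limma adjusted p = 0.077). In both genes the lowest Z18trunc library was well above the highest Clover library. SNORD143, in an intron of the coat protein gene SEC31A, had 1.35, 0.899 and 0.865 TPM in Clover and 3.49, 3.998 and 2.47 TPM in Z18trunc. Its log2 change was 1.07 (SE 0.16, limma adjusted p = 0.077). SNORA73B (U17b, an H/ACA RNA that acts in ribosomal RNA cleavage) went the other way. It had 9.23, 8.44 and 6.76 TPM in Clover and 2.31, 3.73 and 4.35 TPM in Z18trunc, a log2 change of -1.05 (SE 0.19, limma adjusted p = 0.077). These 6 genes kept their direction after quantile normalization, with log2 changes of 1.32, 1.03, 0.96, 0.92, 0.94 and -1.22 in the order given.

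**Figure D3:**
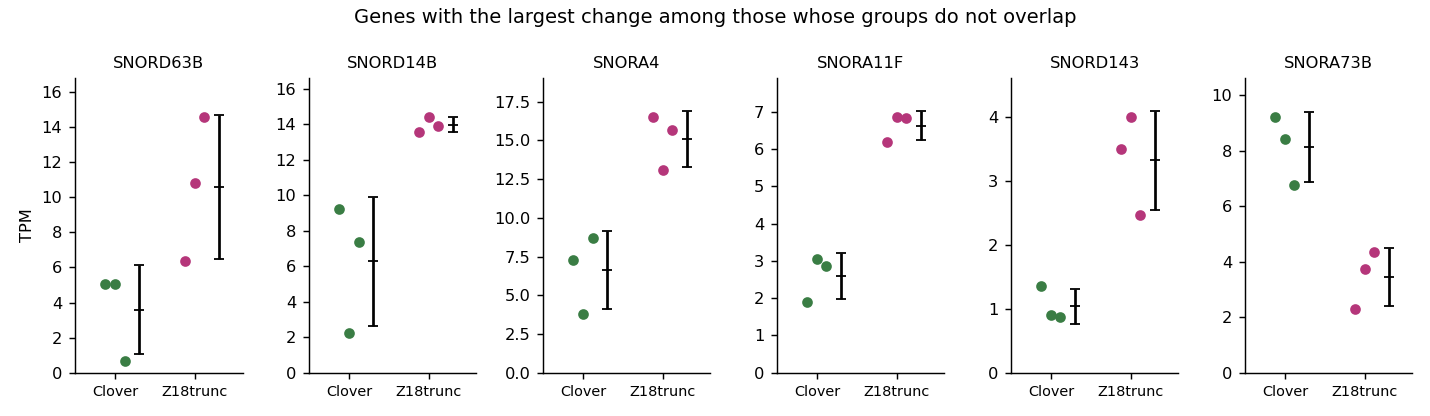
TPM in each library (points) for SNORD63B, SNORD14B, SNORA4, SNORA11F, SNORD143 and SNORA73B, with the group mean and SD (n = 3) beside the points and axes starting at 0. The 3 Z18trunc libraries lie above the 3 Clover libraries in 5 genes and below them in SNORA73B, where they reach 4.35 TPM against a lowest Clover value of 6.76 TPM.

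The panels of single genes make the spread inside each group visible, which was small in SNORA11F and large in SNORD63B. When the test was restricted to genes with a mean of 5 TPM or more, 4.75% of 9973 genes were called, and among 88 snoRNA and Cajal body RNA genes 3 were. SNORA4 rose (limma adjusted p = 0.0495), and SNORA73B and SNORA68 fell (limma adjusted p = 0.0486 for each). SNORA68, an H/ACA RNA that was named for this call, was at 6.32 and 4.12 TPM, with a log2 change of -0.52. With an intensity trend in the variance 60 of 13300 genes (0.451%) were called, SNORA11F being the 1 called among the 203 (limma adjusted p = 0.044).

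Host genes were compared next, since RNA of a host can span the snoRNA gene inside it. Over 102 hosts with a mean of 1 TPM or more the median log2 change was 0.04, against 0.11 over all genes, and none passed the adjusted test. After quantile normalization the median was 0.03 for the hosts and -0.01 for all genes, so the order of the 2 medians depended on the scaling. Before adjustment, p was under 0.05 for 25 higher hosts (24.5%, beside 25.6% of all genes) and 1 lower host (beside 2.9%), and after quantile normalization for 16 higher and 5 lower hosts, where 12.8% and 10.9% of all genes were higher and lower. Without overlap, 29 hosts were higher and 14 lower (28.4% and 13.7%, beside 30.1% and 6.73% of all genes). After quantile normalization 27 hosts were higher and 11 lower without overlap, beside 16.8% and 16.2% of all genes. HSPA9 changed by 0.35 (limma adjusted p = 0.087), EIF4A2 by 0.46 (limma adjusted p = 0.077) and SEC31A by 0.40 (limma adjusted p = 0.083), each with all Z18trunc libraries above Clover. RPS13 changed by -0.05 and RCC1, taken as the host of SNORA73B for its higher mean TPM, by 0.08, both with overlapping groups. SNHG3, which shares the RCC1 locus, was at 41.0 ± 14.7 TPM (SD, n = 3) and 65.5 ± 21.2 TPM (SD, n = 3), also overlapping. Its log2 change was 0.67 (limma adjusted p = 0.19). The related gene SNORA73A matched an SNHG3 transcript at its own place, so SNHG3 may be the host of SNORA73B as well. On the log2 scale the change of the snoRNA gene exceeded that of its host by 1.14 for SNORD63B, 1.25 for SNORD14B, 0.67 for SNORA4 and 0.68 for SNORD143. SNORA73B lay 1.13 below RCC1, at -1.13, and its distance from SNHG3 was not computed. These distances follow from the choice of the genes and were not tested.

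**Figure D4:**
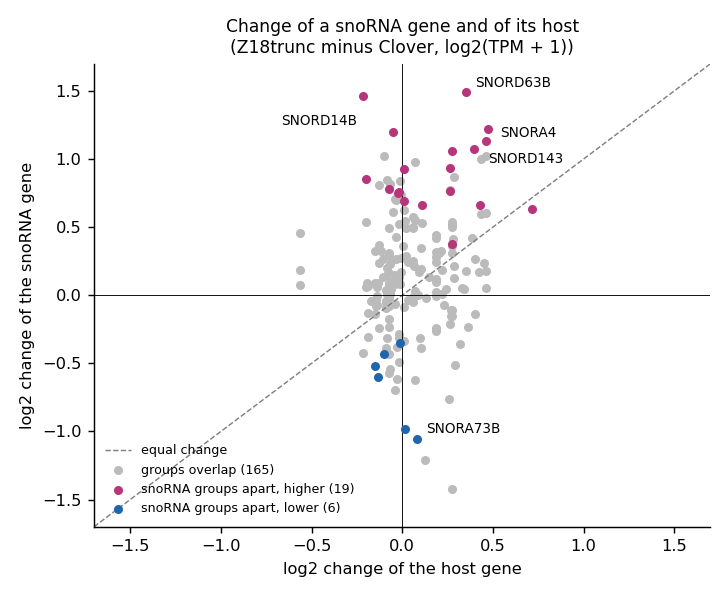
Log2 change of a snoRNA or Cajal body RNA gene against the log2 change of its host (Z18trunc minus Clover, log2(TPM + 1)), with a dashed line of equal change. Genes without overlap between groups are coloured, 19 higher and 6 lower, and the hosts spread over a narrower range, from -0.56 to 0.72, than the snoRNA genes, from -1.42 to 1.49.

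The plot against hosts shows a wider spread along the snoRNA axis than along the host axis. The median within-group SD of log2(TPM + 1) also differed, at 0.45 for the 203 genes and 0.08 for the hosts. Its part in the wider spread was not tested. Of the 19 genes with a host that were higher without overlap, the host was also higher without overlap for 8 and overlapped for 10. For SNORD50A, named as the single gene of the other kind, the host SNHG5 was lower without overlap. SNORD50A itself was at 0.485 TPM in Clover and 3.33 TPM in Z18trunc, and it passed the 1 TPM rule through Z18trunc alone. Of the 6 lower genes, 3 had a host that was lower without overlap, and none had a host that was higher. Over the 102 hosts 28.4% were higher and 13.7% lower without overlap. Of all 20 higher genes 6 passed the 1 TPM rule through Z18trunc alone, and of the 6 lower genes 1 through Clover alone. Agreement between a gene and its host was not tested. By host type, the median log2 change was 0.16 for 140 genes in coding hosts and 0.09 for 46 in long noncoding hosts, and 0.02 and -0.07 after quantile normalization.

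Hosts with several genes allow a look at neighbours in 1 transcript. In EIF4A2 all 5 genes had positive log2 changes, from 0.06 for SNORD2 to 1.13 for SNORA4, with 0.17 for SNORA63, 0.60 for SNORA63B and 1.02 for SNORA81. SNORA4 alone among them was without overlap. SNORA81 had 7.65, 1.11 and 12.5 TPM in Clover and 12.7, 8.56 and 14.9 TPM in Z18trunc, so Clover replicate 2 was far below the rest. That library was also the lowest for SNORA63B, at 5.14 TPM, and for SNORA4. After quantile normalization SNORD2 was at -0.13. The 11 genes in GAS5 ranged from 1.07 TPM (SNORD75) to 28.4 TPM (SNORD47), with log2 changes from -0.57 to 0.50 around -0.07 for GAS5, and none was without overlap. In TAF1D 1 of 8 genes was without overlap, in SNHG1 0 of 7, in NOP56 0 of 5, and in RPL13A all 4 had negative changes between -0.42 and -0.04 and overlapped.

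Summed levels were then compared by class. The C/D sum was 1667 ± 69.5 TPM with Clover and 1787 ± 77.4 TPM with Z18trunc (SD, n = 3 each). The groups overlapped, at a log2 ratio of 0.10. Without SNORD141A and SNORD141B it was 976 ± 49.7 and 1086 ± 37.8 TPM, a log2 ratio of 0.15, and the groups did not overlap. The H/ACA sum was 501 ± 52.3 and 555 ± 26.8 TPM, a log2 ratio of 0.15 with overlap, which was 0.23 without Clover replicate 1 and 0.08 without Clover replicate 2. The Cajal body sum was 53.7, 49.6 and 52.9 TPM in Clover and 59.2, 56.4 and 70.5 TPM in Z18trunc, a log2 ratio of 0.25 without overlap. Z18trunc replicate 3 was the highest, and without it the ratio was 0.15. SCARNA13, in SNHG10, had 10.1, 8.24 and 10.0 TPM in Clover and 12.8, 11.6 and 23.3 TPM in Z18trunc, and it was the SCARNA gene without overlap. SNHG10 changed by 0.72 on the log2 scale. After quantile normalization the 3 class ratios were 0.02, -0.01 and 0.05.

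Fragments of transposable elements (TEs) inside host introns were counted, since these repeats are listed locus by locus. The paper reports that endogenous retroviral RNA, from a class of TEs, was higher with Z18trunc in SW480 cells. A change of TE RNA itself and a change of intron RNA cannot be told apart in these counts. TE loci lying in host introns on the host strand held 119, 105 and 100.4 CPM (uniquely mapped fragments scaled to aligned fragments as counts per 1000000) in Clover and 130, 139.8 and 147 CPM in Z18trunc. The groups did not overlap, with means of 108 ± 9.69 and 139 ± 8.51 CPM (SD, n = 3) and a log2 ratio of 0.36. In introns of other genes the means were 9746 ± 717 and 12119 ± 1006 CPM (SD, n = 3), a log2 ratio of 0.31, also without overlap. Hosts and other genes were counted here only with a mean of 1 TPM or more, and snoRNA and Cajal body RNA genes were not among the others. Intronic TE fragments were thus higher in Z18trunc in hosts and in other genes, a difference between the ratios was not tested, and their part in the snoRNA gene levels was not tested.

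**Figure D5:**
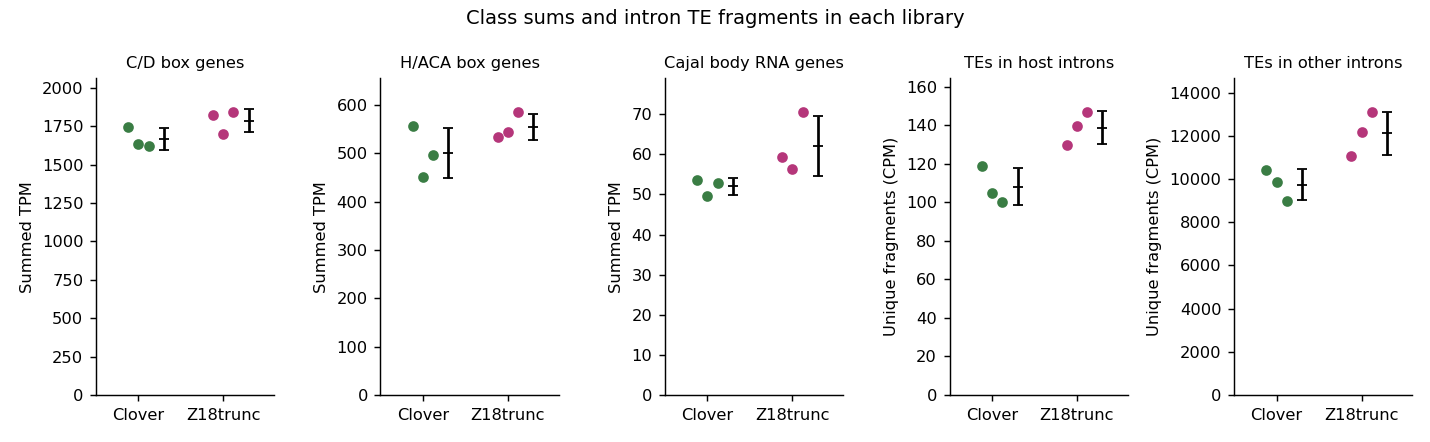
Summed TPM of the C/D, H/ACA and Cajal body RNA genes and uniquely mapped TE fragments (CPM) in host introns and in other introns, for each library (points), with group mean and SD (n = 3) and axes starting at 0. The groups overlap for the C/D and H/ACA sums, and every Z18trunc library lies above every Clover library for the Cajal body sum and for both sets of introns.

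The panels of sums and intron fragments place a log2 ratio of 0.31 to 0.36 for intronic TE fragments beside 0.10 to 0.25 for the class sums. The fragments are scaled to aligned fragments and the sums are TPM, so the ratios come from unlike measures. Quantile normalization was applied to the sums and not to the fragments. Genes that build, assemble and process these RNAs were taken from lists. Among the C/D core proteins, FBL (fibrillarin, the methyltransferase) was at 907 ± 44.3 and 898 ± 30.4 TPM, NOP58 at 54.8 ± 1.06 and 67.7 ± 16.8 TPM and SNU13 at 294 ± 10.4 and 283 ± 1.72 TPM in Clover and Z18trunc (SD, n = 3). NOP56 was at 215 ± 5.79 and 223 ± 3.68 TPM (SD, n = 3). Among the H/ACA core proteins, DKC1 (dyskerin, the pseudouridine synthase) was at 168 ± 12.5 and 184 ± 7.71 TPM and NHP2 at 450.1 ± 5.205 and 419 ± 8.97 TPM (SD, n = 3). NOP10 was at 222 ± 4.41 and 229 ± 10.9 TPM, and GAR1 at 97.6 ± 6.42 and 116 ± 2.82 TPM (SD, n = 3). Log2 changes of these 8 genes ran from -0.10 to 0.27, and none passed the adjusted test. The upper end, NOP58, was at 0.43 without Z18trunc replicate 1 and 0.09 without Z18trunc replicate 3.

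None of 41 snoRNP and processing genes tested passed at a limma adjusted p under 0.05. Before adjustment p was under 0.05 for 20 higher and 0 lower genes, beside 25.6% and 2.9% of all genes. Without overlap, 23 were higher and 3 lower, beside 30.1% and 6.73% of all genes. After quantile normalization 15 were higher without overlap, beside 16.8% of all genes. Log2 changes were positive in all 14 end processing and decay genes (nuclear exosome, its adaptors, exonucleases and the debranching enzyme), beside 9042 of 13300 genes. Their median was 0.36, and 11 were higher without overlap, beside 30.1% of all genes. After quantile normalization 13 remained positive, beside 6507 of 13300 genes, and their median was 0.18. Those higher without overlap then numbered 6, beside 16.8% of all genes. XRN2, a nuclear exonuclease, was at 79.4 ± 8.20 and 106 ± 4.52 TPM (SD, n = 3), and PARN, a deadenylase that trims H/ACA RNAs, at 12.2 ± 0.771 and 16.1 ± 0.761 TPM (SD, n = 3). Of 10 Cajal body and nucleolar factors 7 were higher without overlap, among them PHAX, an RNA export adaptor, at 14.1 ± 0.050 and 20.1 ± 2.39 TPM (SD, n = 3). The 9 assembly factors tested had a median of 0.18, which was 0.02 after quantile normalization. With genes of a mean of 5 TPM or more alone, PARN, PHAX, RBM7, XRN2 and ZCCHC8 were called among 37, where 4.75% of 9973 genes were called.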

How the data were processed

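Polyadenylated RNA of 6 SW480 samples was sequenced by the authors as stranded paired-end libraries, trimmed with cutadapt 4.6 per the labels, mapped to hg38 and run through SQuIRE. The deposited gene tables hold TPM and coverage per gene row, which the authors' pipeline normalized, and no counts. The deposited TE tables hold uniquely mapped counts and estimated counts per locus, and each library's number of aligned fragments. TPM was summed by symbol. Groups came from sample titles, 3 libraries each.

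The filter kept a mean TPM of 1 or more. The test was limma 3.58.1 (R 4.3.3) on log2(TPM + 1), with Benjamini-Hochberg adjustment over 13300 genes and calls at 0.05. Fold changes on this scale understate the change of low genes. The fit was tested on simulated data. Groups were called without overlap when every library of one lay above every library of the other. With 3 against 3 libraries an exact permutation test cannot go below 0.1, so sums carry no test. Hosts came from the spans in the authors' gene tables, and GENCODE 44, whose positions matched them, supplied exons. Copies were searched with BLAST 2.17.0 at 95% identity or more. TE fragments in host introns were divided by aligned fragments.

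Members and lists were chosen with earlier results of these data known. Named genes were the 12 with the highest mean TPM, called genes, the 6 with the largest change among those without overlap and with both group means at 1 TPM or more, up to 6 without a host, 3 on each side of the 1 TPM rule, their hosts and ZC3H18. Other genes named were chosen after their values were seen. Alternatives were a pseudocount of 0.1, no filter, a mean TPM of 5 or more, quantile normalization, an intensity trend, a replicate block, estimated TE counts and leaving out each library. Counting genes with both group means at 1 TPM or more, genes in introns or noncoding exons alone, and the C/D sum without SNORD141A and SNORD141B were added after the data were seen.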

Additional observations from a re-analysis of the deposited data

How the results depend on the processing

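ZC3H18 stayed called, with log2 changes from 3.64 to 3.78. None of the 203 genes was called with another pseudocount, no filter, quantile normalization or any library left out, whereas 1 was with an intensity trend and 3 of 88 with a mean TPM of 5 or more, where 5 snoRNP and processing genes also passed. Before adjustment, genes with p under 0.05 and higher in Z18trunc numbered 17 with a pseudocount of 0.1 and 12 with a mean TPM of 5 or more. The shares of all genes under these settings are not given here. After quantile normalization 12 were higher and 13 lower, beside 12.8% and 10.9% of all genes. Quantile normalization moved the median of the 203 genes to -0.0099 and the log2 ratios of the C/D, H/ACA and Cajal body sums to 0.020, -0.011 and 0.052; the cause was not tested. Genes without overlap numbered 12 of 88 with a mean TPM of 5 or more. They numbered 40 to 52 with 1 library left out, where fewer libraries have to be apart. The matching shares of all genes are not given here, so these counts are not compared with all genes.

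Replicate numbers did not pair the libraries, since deviations of same-numbered libraries correlated at -0.04, 0.02 and -0.04. With the replicate block 0 of the 203 genes were called, and p before adjustment was under 0.05 for 37 higher and 6 lower genes. The share of all genes with this block is not given here.

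Of 511 alternative values for 43 named genes 36 changed sign, in 17 genes. After quantile normalization log2 changes turned to -0.0099 for SNORA67, -0.044 for SNORD36A, -0.033 for SNORD47, -0.076 for SNORA105C, -0.15 for SNORA104, -0.056 for SCARNA10, 0.054 for EIF4A1, 0.019 for RPL3 and 0.0041 for RPS13. With 1 library left out the log2 change ran from -0.14 to 0.098 for SNORA70, -0.053 to 0.18 for SNORD36A, -0.15 to 0.045 for SNORD141A, -0.26 to 0.018 for SNORD104, -0.14 to 0.15 for SNORA104, -0.11 to 0.23 for SCARNA10 and -0.057 to 0.31 for SNORA67. It ran from -0.0033 to 0.13 for RCC1, -0.044 to 0.025 for FBL, -0.017 to 0.075 for SNORD141B, -0.13 to 0.084 for SNORD86, -0.090 to 0.30 for SNORA105C, -0.057 to 0.68 for SNORA11 and -0.021 to 0.00085 for EIF4A1. Most of these genes had changes near 0 in the first place. What a greater depth would change for the 115 of 203 genes under 5 TPM was not tested.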
